A study of Homo sapiens with 4 samples.

Results

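The peaks on chromosomes 21 and 22 were described in Kasumi-1 cells, a line from an acute myeloid leukaemia with the translocation t(8;21), in which chromatin accessibility had been measured by ATAC-seq. A transposase inserts sequencing adapters wherever chromatin lets it in, so reads pile up at accessible sites. The groups were Kasumi-1 cells with SETD8 knocked out by CRISPR/Cas9 (2 libraries) and Kasumi-1 cells labelled sgNT with a WT genotype (2 libraries), all grown in the same medium. Whether the libraries of a group came from separate cultures, and whether the knockout was a clone or a pool, was not given in the sources used here. Members were the peaks listed on either chromosome in the authors' deposited tables, which use the build hg38. They were 621 of the 20556 peaks of the first table, or 3.02%, and 484 of the 13577 peaks of the second, or 3.56%. The second table compares the knockout and the sgNT library numbered 2, so it has 1 library per group. The first names no library. The chromosomes were taken up because of fold changes already seen in these tables, so the values that follow are descriptions with no test of their own.

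Chromosome 21 was read in parts. The first table had 11 peaks on its short arm (below 13 Mb), 98 between there and RUNX1, 8 in the RUNX1 interval (positions 34800000 to 35050000) and 90 beyond it, and the second table had 19, 53, 6 and 78. Chromosome 22 had 1 short-arm peak and 413 others by the first table, but 0 and 328 by the second. Of the 621 first-table members 360 overlapped a second-table peak by at least 1 bp. A total of 357 second-table members overlapped a first-table peak and took its annotation. The other 127 had no annotation, and 43 of these lay over a RefSeq start-site window.

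SETD8, now named KMT5A, is the enzyme that places a single methyl group on lysine 20 of histone H4, a mark tied to chromatin compaction and to passage through the cell cycle. RUNX1 encodes a transcription factor needed for the formation of blood stem cells, and is transcribed towards the centromere from a distal and a proximal promoter. In t(8;21) the chromosome breaks inside RUNX1, so that the centromeric side stays on the derivative chromosome 21 with the end of the gene. The other side of the break, with both promoters and the start of RUNX1, moves to the partner chromosome and is joined there to RUNX1T1. The short arms of chromosomes 21 and 22 carry the arrays of ribosomal RNA genes and much repeated sequence. Chromosome 22 is rich in genes and in GC, and chromosome 21 is poor in genes except towards its end.

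Promoter windows that carry the descriptions below run from 250 bases before to 50 bases after a gene's start (RefSeq, GRCh38.p14, 300 bases each, 5′ to 3′ on the gene's strand). The RUNX1 window, at the proximal promoter (chr21:34888650-34888949, minus strand), is shown because the peak over it belongs to the RUNX1 interval. Those of GABPA (chr21:25734722-25735021, plus strand) and MORC3 (chr21:36319947-36320246, plus strand) are shown because they were among the lowest ranked promoters of their stretch in the second table and hold motif letters. Capitals mark CCGGAAG (ETS factors) and the 10 letters of the NRF1 motif, each searched on both strands. RUNX1 has no capitals, as neither of these nor TGTGGT (RUNX factors) occurs in this window on either strand.
RUNX1: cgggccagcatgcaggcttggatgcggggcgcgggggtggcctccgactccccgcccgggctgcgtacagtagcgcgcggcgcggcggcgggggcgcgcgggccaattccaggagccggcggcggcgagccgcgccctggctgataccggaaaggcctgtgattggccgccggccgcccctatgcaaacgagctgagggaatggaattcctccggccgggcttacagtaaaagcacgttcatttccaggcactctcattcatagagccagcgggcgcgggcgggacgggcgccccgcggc
GABPA: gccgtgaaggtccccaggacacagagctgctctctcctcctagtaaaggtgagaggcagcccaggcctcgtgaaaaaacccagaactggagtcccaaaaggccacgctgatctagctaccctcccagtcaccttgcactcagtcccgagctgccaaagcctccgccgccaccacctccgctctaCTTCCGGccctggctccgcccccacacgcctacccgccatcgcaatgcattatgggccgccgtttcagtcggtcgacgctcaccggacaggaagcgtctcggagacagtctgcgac
MORC3: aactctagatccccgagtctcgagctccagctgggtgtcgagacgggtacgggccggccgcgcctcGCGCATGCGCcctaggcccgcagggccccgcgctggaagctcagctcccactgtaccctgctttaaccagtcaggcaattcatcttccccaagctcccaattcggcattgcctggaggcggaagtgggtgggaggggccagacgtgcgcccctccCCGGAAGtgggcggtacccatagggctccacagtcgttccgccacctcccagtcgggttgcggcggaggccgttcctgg

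A further set of windows is shown because short-arm copies of long-arm promoters bear on how peaks of both arms are read. The SIK1 window (chr21:43427082-43427381, minus strand) equals that of its short-arm copy LOC102724428 in 300 of 300 bases, so it is printed once. U2AF1 (chr21:43107521-43107820, minus strand) and its copy LOC102724594 (chr21:6499199-6499498, minus strand) differ in 1 of 300 bases, which the capital marks.
SIK1: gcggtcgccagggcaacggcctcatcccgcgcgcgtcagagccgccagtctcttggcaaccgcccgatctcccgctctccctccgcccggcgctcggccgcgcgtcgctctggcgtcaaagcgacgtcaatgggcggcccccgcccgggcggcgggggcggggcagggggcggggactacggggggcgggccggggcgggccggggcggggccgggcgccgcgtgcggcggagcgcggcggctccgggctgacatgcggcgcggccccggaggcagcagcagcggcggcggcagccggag
U2AF1: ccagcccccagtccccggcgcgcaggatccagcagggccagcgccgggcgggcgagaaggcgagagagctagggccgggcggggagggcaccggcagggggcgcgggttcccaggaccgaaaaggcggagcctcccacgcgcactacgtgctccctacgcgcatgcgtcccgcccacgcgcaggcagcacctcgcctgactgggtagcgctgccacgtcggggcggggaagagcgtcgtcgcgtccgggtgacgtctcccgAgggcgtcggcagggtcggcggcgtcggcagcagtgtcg
LOC102724594: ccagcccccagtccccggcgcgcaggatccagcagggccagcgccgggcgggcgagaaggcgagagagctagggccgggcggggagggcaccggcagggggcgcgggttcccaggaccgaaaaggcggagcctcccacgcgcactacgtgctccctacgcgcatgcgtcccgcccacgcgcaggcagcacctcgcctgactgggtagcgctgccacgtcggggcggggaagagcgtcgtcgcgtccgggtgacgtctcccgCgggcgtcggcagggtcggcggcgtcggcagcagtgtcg

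On both sides of RUNX1 the peaks of chromosome 21 were less reduced in knockout cells than the peaks of the whole table, while the median at RUNX1 itself, on few peaks, was not. The median log2 fold change, knockout over sgNT, was -0.59 between the short arm and RUNX1, -1.15 in the RUNX1 interval and -0.73 beyond it, against -0.87 for all peaks of the authors' first deposited table. Chromosome 22 outside its short arm stood at -0.71. For the pair of libraries numbered 2, the medians were -1.07, -1.33 and -1.09 along chromosome 21 and -1.18 on chromosome 22, against -1.23 for all peaks of the authors' second deposited table. Most peaks of either table had a fold change below 0, and position on the chromosome showed as a smaller or larger distance from that shared shift. In ATAC-seq of bulk cells, fewer cells with an open site and less cutting per cell cannot be told apart. The libraries numbered 2 also differed in reads in peaks (2091322 in knockout, 5345251 in sgNT). Library scaling was not given in the sources, but for these libraries it was recovered from the listed levels. It took the median sgNT reads per second-table peak from 323 to 296, against 125 in knockout. The second-table fold changes therefore still contain the difference in reads in peaks. Whether that difference, and the shared shift of either table, comes from the cells or from the libraries was not tested.

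Set against the table's median, the stretch before RUNX1 stood higher by 0.28 and 0.16 in the first and second tables. Beyond RUNX1 the difference was 0.15 in each table, and on chromosome 22 it was 0.16 and 0.05. The RUNX1 interval stood below it, at -0.28 and -0.10, on 8 and 6 peaks. This direction did not hold in every reading, since the second-table value was 0.19 at promoter peaks alone, and wider limits for the interval (34 to 36 Mb) gave 0.00 and -0.01. Among the 22 autosomes, short arms of 21 and 22 left out, chromosome 21 had the highest median in the first table (0.21 above the table), followed by chromosome 19 (0.19), chromosome 22 (0.16) and chromosome 8 (0.14). In the second table chromosome 8 came first (0.23), chromosome 21 next (0.15), and chromosome 22 ranked 5 (0.05). Chromosome 22 was therefore close to chromosome 19 in both tables (chromosome 19 stood at 0.04 in the second). By the second table both were close to the table's median.

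**Figure D1:**
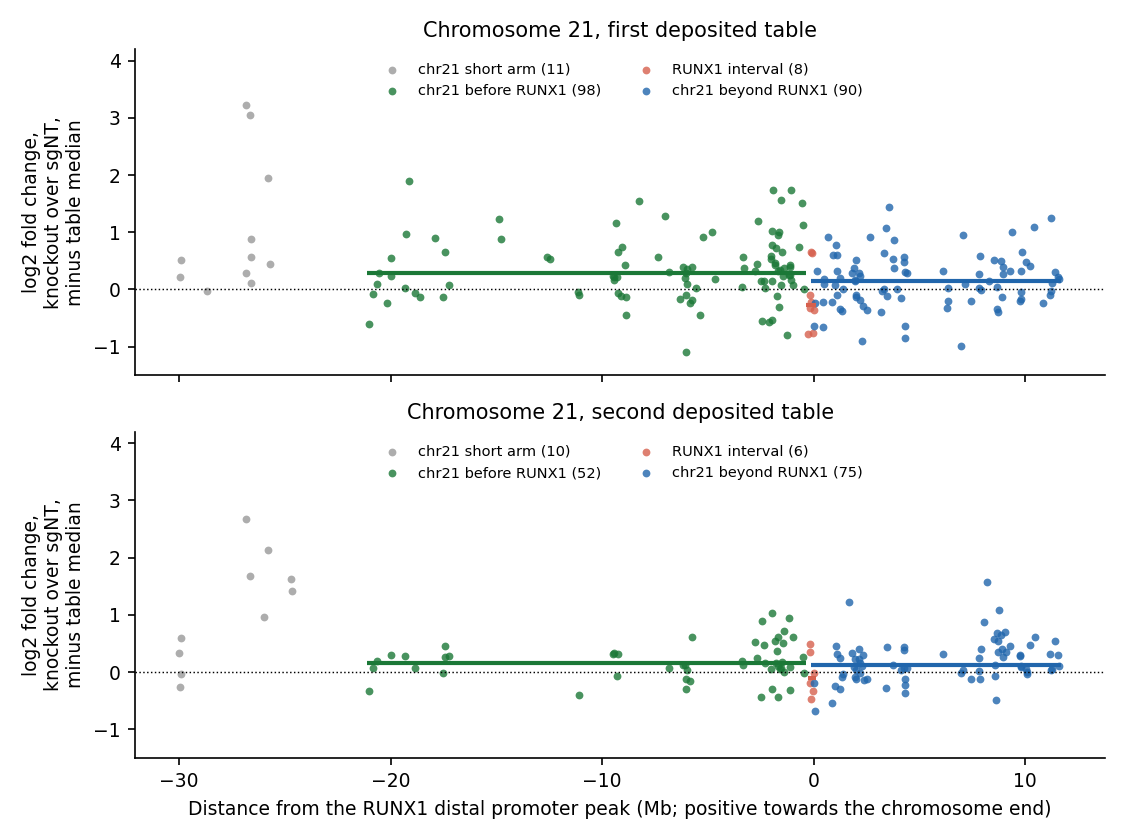
Each point is a peak of chromosome 21, placed by its distance in Mb from the RUNX1 distal promoter peak (x axis) and by its log2 fold change, knockout over sgNT, minus the median of its table (y axis), for the first (top) and second (bottom) deposited table; peaks at the lowest listed level of the second table are left out. Lines mark the medians before and beyond RUNX1, which lie at 0.28 and 0.15 at the top and at 0.16 and 0.13 at the bottom, while the points at RUNX1 lie mostly below 0.

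A log2 fold change of -1 or less is a level at least 2-fold lower in knockout cells. It was found at 16 of 98 first-table peaks before RUNX1 (16.3%), 5 of 8 in the RUNX1 interval, 26 of 90 beyond it (28.9%) and 110 of 413 on chromosome 22 (26.6%), against 38.9% of all first-table peaks. Among second-table peaks the counts were 30 of 53 (56.6%), 4 of 6, 42 of 78 (53.8%) and 228 of 328 (69.5%), against 76.1% of all. The stretches on both sides of RUNX1 and chromosome 22 were thus under the background share in each table. The RUNX1 interval was above it by the first table and below it by the second, on few peaks.

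First-table peaks with a fold change above 0 were 19 of 98 before RUNX1 (19.4%), 0 of 8 in the interval, 8 of 90 beyond it (8.89%) and 41 of 413 on chromosome 22 (9.93%), against 7.45% of all. Second-table peaks above 0 were 1 of 53 before RUNX1, 0 of 6 in the interval, 4 of 78 beyond it and 10 of 328 on chromosome 22, against 1.34% of all. Of these 15 second-table members 9 were at the lowest listed level, where the value carries no information (see the short arms). The remaining 6 were a site beyond RUNX1 (chr21:43262386-43262867, 51 knockout against 40.5 normalised sgNT reads) and 5 sites on chromosome 22, among them the promoter of the lens crystallin gene CRYBB1 with 53 knockout against 51.3 normalised sgNT reads.

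No single peak passed an adjusted p of 0.05 in either of the authors' deposited tables (0.0% of all peaks), and the lowest adjusted p was 0.731 in the first and 0.578 in the second. An unadjusted p under 0.05 was listed for 6 of the 621 first-table members, against 1.6% of all peaks of that table. Among these 6 were a promoter of ITSN1, an endocytic scaffold (fold change -1.66, p = 0.0279), a peak in the 3′ end of NF2, the merlin tumour suppressor gene (-1.88, p = 0.0241), and the promoter of EP300-AS1 (-2.21, p = 0.0408), all with an adjusted p of 0.731 in the authors' first deposited table. Such a p was listed for 1 of the 484 second-table members, against 0.14% of all peaks of that table. This peak (chr22:21399528-21400277) had 2 knockout reads and 20.3 normalised sgNT reads, a fold change of -3.34 with p = 0.00464 and an adjusted p of 0.578 in the authors' second deposited table.

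A fold change of -1.5 or less was found before RUNX1 at 2 of 98 first-table and 7 of 53 second-table peaks, in the interval at 2 of 8 and 2 of 6, beyond it at 6 of 90 and 6 of 78, and on chromosome 22 at 16 of 413 and 42 of 328. Over all peaks it was found at 8.51% and 19.5%. At 0.5 or more above the table's median were 33 of 98 and 11 of 53 peaks before RUNX1, 19 of 90 and 14 of 78 beyond it, and 102 of 413 and 42 of 328 on chromosome 22, against 17.7% and 9.16% of all. At 0.5 or more below it were 6 of 98 and 0 of 53, 6 of 90 and 2 of 78, and 33 of 413 and 9 of 328 in the same stretches, against 13.7% and 6.29% of all. The shares were thus shifted at both ends of the range, not at the middle alone.

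Reads recovered from the second table gave shares that do not depend on how the libraries were scaled to each other. They come from the same reads as the fold changes, so they are not separate support for the medians. Peaks between the short arm and RUNX1 held 0.428% of the knockout library's reads in peaks (8942 reads, 95% exact binomial interval 0.419 to 0.437), against 0.378% of the sgNT library's (20202 reads, 0.373 to 0.383), a ratio of 1.13. Beyond RUNX1 the shares were 0.506% in knockout (0.496 to 0.515) and 0.454% in sgNT cells (0.448 to 0.46), a ratio of 1.11. These intervals do not overlap between the libraries in either stretch, nor do those of chromosome 22. With 1 library per group, that does not show a difference between knockout and sgNT cells. The RUNX1 interval held 0.0335% in knockout (0.0311 to 0.0361) and 0.0328% in sgNT cells (0.0313 to 0.0344), and those intervals overlap. Chromosome 22 held 2.19% in knockout (2.17 to 2.21) and 2.13% in sgNT cells (2.12 to 2.14), a ratio of 1.03. The intervals cover counting error only, since the spread between libraries of a group could not be measured with 1 library each.

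In windows of 2 Mb with at least 5 peaks, chromosome 21 lay above the table's median in 12 of 14 windows of the first table and in 10 of 11 of the second, short-arm windows included. The second-table short-arm window (8 to 10 Mb) was at 1.35, the value listed for peaks at the lowest level, which carries no information. The share of windows above the median was not computed for other chromosomes, so these counts have no background. The window from 34 to 36 Mb, which holds RUNX1, was at 0.00 and -0.01. On its centromeric side the window from 32 to 34 Mb, the densest of the chromosome, was at 0.36 (36 peaks) and 0.17 (24 peaks). It holds the cluster of interferon and interleukin receptor genes. The largest second-table value outside the short arm was 0.38 between 42 and 44 Mb, which stood at 0.04 in the first table.

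Peaks on the centromeric side of RUNX1 included receptor genes of the interferon cluster and several housekeeping promoters. The promoter of IL10RB, a subunit of the interleukin-10 receptor, stood at -0.15 and -1.07 in the authors' first and second deposited tables, with 150 knockout against 315 normalised sgNT reads. At IFNAR2, a subunit of the type I interferon receptor, the second-table peak had 170 knockout against 274 normalised sgNT reads, a fold change of -0.69 with a 95% counting interval of -0.97 to -0.42. The promoter shared by GART, an enzyme of purine synthesis, and SON, a splicing cofactor, stood at -0.22 and -1.06 in the authors' first and second deposited tables (380 knockout against 798 normalised sgNT reads). These 3 promoters lay above the median of their table, but those of IFNAR1 and IFNGR2, further receptor subunits of the same cluster, lay below that of the first, at -0.99 and -1.17.

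At the low end of the same stretch were the promoters of APP, the amyloid precursor gene, at -1.32 and of CXADR, an adhesion receptor, at -1.01 in the authors' first deposited table. USP16, a histone H2A deubiquitinase, ranked lowest in the second table, with 184 knockout against 526 normalised sgNT reads and a fold change of -1.52. GABPA shares its promoter with the ATP synthase gene ATP5PF. That peak had 267 knockout against 657 normalised sgNT reads, a fold change of -1.30 (counting interval -1.51 to -1.10) in the authors' second deposited table, beside -0.65 by the first. The promoter of CFAP298, a cilium gene, was the lowest ranked of 36 first-table promoters (-1.42) and the highest ranked of 30 second-table promoters (-0.34, 207 knockout against 261 normalised sgNT reads). Such a promoter shows how far the tables can differ at a single site. The strongest peaks by reads, not corrected for width, were the promoters of LTN1, a ubiquitin ligase of stalled ribosomes, at -0.67 and -1.10 in the authors' first and second deposited tables, and of ITSN1 at -0.50 and -1.23. Away from promoters, a peak in ANKRD20A11P, a pseudogene, was the lowest ranked of 8 in the first table and stood at -1.48 and -1.56 in the authors' first and second deposited tables. A peak in the gene LINC01684 stood at -0.97 and -1.64.

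The median of the RUNX1 interval lay below that of each table, with 2 of 8 first-table and 2 of 6 second-table peaks above it. At the proximal promoter, the first-table peak over the printed window (chr21:34888145-34889319) had a fold change of -1.20, and its neighbour (chr21:34889524-34890436) one of -0.97. The matching second-table peaks had 128 knockout against 343 normalised sgNT reads (-1.42, counting interval -1.72 to -1.13) and 218 against 365 (-0.74, -0.99 to -0.50), and a smaller one beside them had 86 against 159 (-0.88) in the authors' second deposited table. At the distal promoter the first-table peak (chr21:35048895-35049558) stood at -1.23 and its second-table partner at -1.24, with 114 knockout against 271 normalised sgNT reads. Against the median of the second table, the peak over the printed window was lower by 0.19, its neighbour higher by 0.49, the smaller peak higher by 0.35 and the distal promoter within 0.01.

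Among the RUNX1 introns, the peak 21881 bp inside the gene from the distal start (chr21:35026682-35027389) was low in both tables. It stood at -1.63 and -1.57 in the authors' first and second deposited tables (112 knockout against 333 normalised sgNT reads, counting interval -1.89 to -1.26). An intron peak downstream of the proximal promoter (chr21:34807469-34808726) stood at -1.65 in the first table and had no second-table partner. The peak at chr21:34911415-34911732, in the intron between the promoters, differed between the tables, with -0.21 by the first and -1.70 by the second (43 knockout against 139 normalised sgNT reads). The remaining intron peaks, of the first table alone, stood at -1.09 and -0.24. Just outside the interval, a peak 1896 bp before the distal start (chr21:35051240-35051735) stood at -1.51 and -1.43 in the authors' first and second deposited tables. A peak further out (chr21:35102936-35103514), still annotated to RUNX1, stood at -1.11 and -1.91, and both lay below the median of each table. On the other side, the nearest peak was the promoter of RCAN1, a regulator of calcineurin, at -0.87 and -1.24, which are at the median of the first table and within 0.01 of that of the second.

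**Figure D2:**
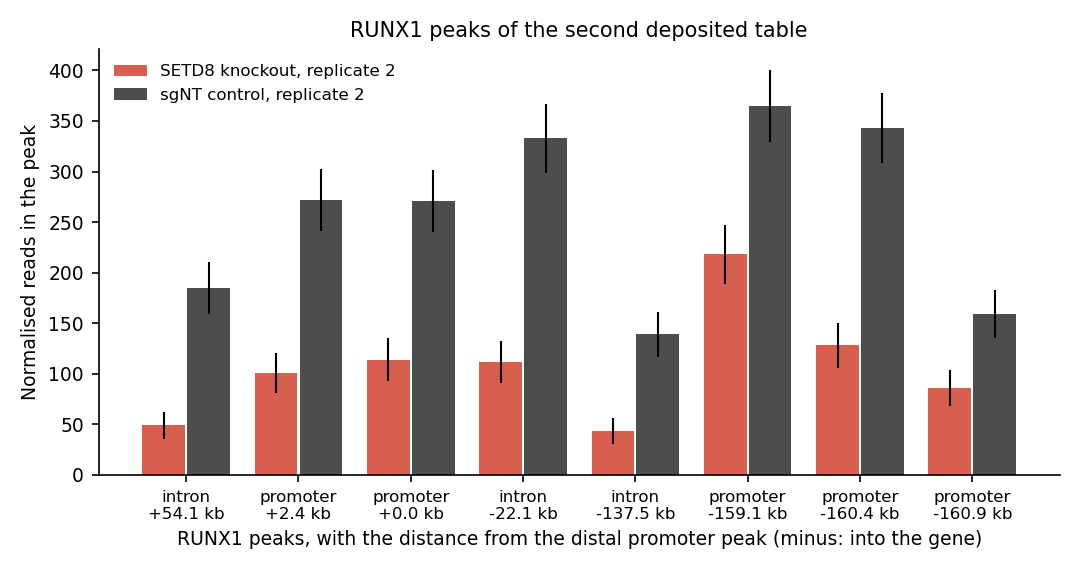
Bars show the normalised reads (y axis) of the SETD8 knockout library (red) and the sgNT control library (grey) numbered 2 in each RUNX1 peak of the second deposited table, ordered along the gene by distance in kb from the distal promoter peak (x axis). Error bars are 95% normal intervals from the square root of the reads and cover counting error only. The 8 peaks had 43 to 218 reads in the knockout library against 139 to 365 in the sgNT library, where 1.34% of all peaks had a fold change above 0.

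Beyond RUNX1, towards the end of the chromosome, the fold changes lay between -1.85 and 0.57 in the first table and between -1.91 and 0.34 in the second. ZBTB21, a zinc finger transcription factor gene, had the lowest ranked first-table promoter, at -1.85, and stood at -1.25 by the second table with 164 knockout against 391 normalised sgNT reads. After it and a RUNX1 peak described above came GET1, which inserts tail-anchored proteins into membranes, at -0.63 and -0.13 relative to the medians of the tables. A peak away from promoters nearest DYRK1A, a protein kinase gene, stood at -1.77 in the first table, but at -1.12 by the second (86 knockout against 187 normalised sgNT reads), 0.11 above that table's median. MORC3, a nuclear body ATPase gene whose window holds an ETS and an NRF1 match, was at -0.67 in the first table. It was the lowest of 25 ranked second-table promoters, with 220 knockout against 635 normalised sgNT reads and a fold change of -1.53 (counting interval -1.75 to -1.31). The next lowest was SETD4, a gene of the SET-domain methyltransferase family, at -1.47 with 174 knockout against 481 normalised sgNT reads.

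The highest ranked promoter peaks of this stretch in the first table were at TRPM2, a cation channel gene (0.13), CBR3-AS1 with DOP1B (-0.27), ETS2 (-0.33) and HMGN1, a nucleosome-binding protein gene (-0.39), in the authors' first deposited table. Those of the authors' second deposited table were at DIP2A (-0.69), CFAP410 (-0.77), BRWD1, a bromodomain gene (-0.79), and PKNOX1, a homeobox gene (-0.83). CBR3-AS1 had 541 knockout against 1024 normalised sgNT reads (-0.92), ETS2 158 against 340 (-1.10) and HMGN1 260 against 580 (-1.16). ETS2 and HMGN1 were thus within 0.13 of the median of the second table, while they were 0.54 and 0.48 above that of the first.

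Along chromosome 22 the peaks kept near the shared shift, with a small excess that differed between the tables. In 16 of 18 windows of 2 Mb the first-table median was above that of the table, with the highest at 0.38 and the lowest at -0.09. Of 17 second-table windows 11 were above it and 6 below, between 0.39 and -0.07. These counts, too, have no background from other chromosomes. The window from 22 to 24 Mb, which holds the immunoglobulin lambda locus, was at 0.31 and 0.27, and that from 44 to 46 Mb at 0.11 and 0.39. The window from 20 to 22 Mb was at -0.04 in both tables and that from 40 to 42 Mb, which includes EP300 and TOB2, at 0.03 and -0.07.

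**Figure D3:**
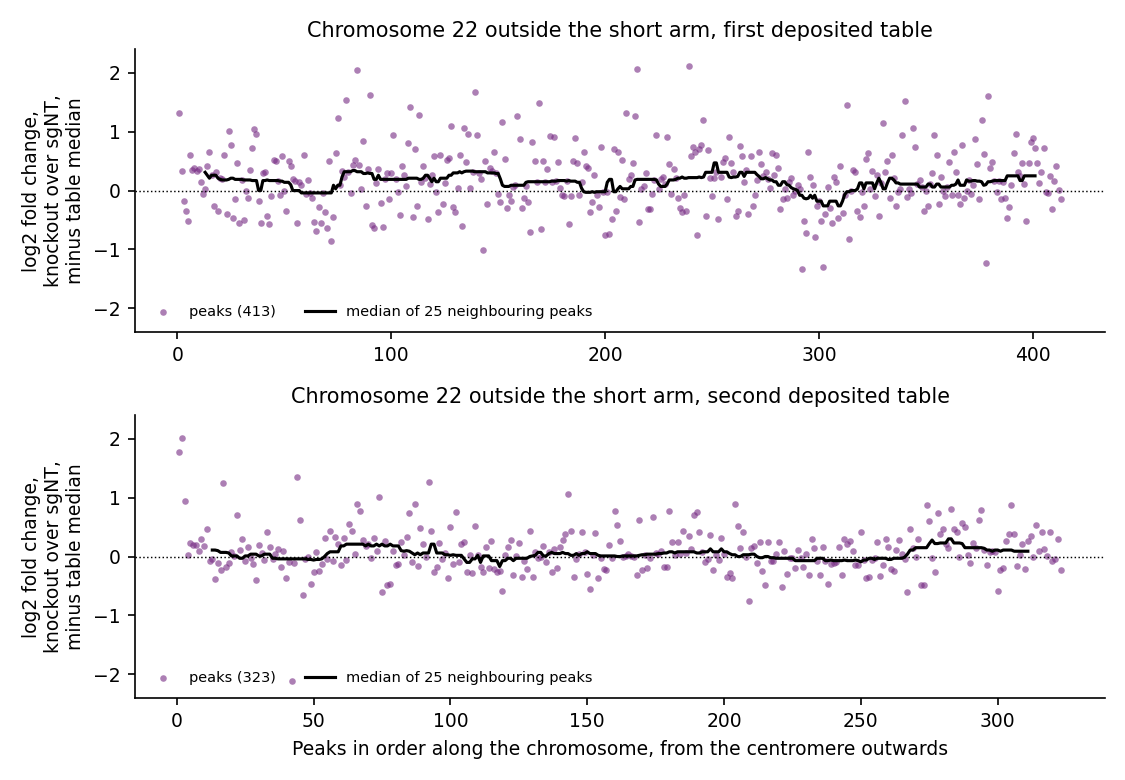
Each point is a peak of chromosome 22 outside the short arm, in order along the chromosome (x axis), with its log2 fold change, knockout over sgNT, minus the median of its table (y axis), for the first (413 peaks, top) and second (323 peaks above the lowest listed level, bottom) deposited table. The line is the median of 25 neighbouring peaks, which stays mostly above 0 at the top and close to 0 at the bottom.

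Among ranked promoters of chromosome 22, TOB2, an antiproliferative gene, had the lowest first-table value, -2.16. A different TOB2 promoter peak in the second table had 156 knockout against 505 normalised sgNT reads and a fold change of -1.69. PPM1F, a phosphatase gene, stood at -1.72, a peak of PLA2G6, a phospholipase gene, at -1.63 and the promoter of L3MBTL2-AS1 at -1.59 in the authors' first deposited table. Lowest in the second table were SCUBE1-AS1, with 131 knockout against 465 normalised sgNT reads (-1.83), CABIN1, a calcineurin-binding protein gene, with 175 against 568 (-1.70), and SDF2L1, an endoplasmic reticulum chaperone gene, with 154 against 495 (-1.69). A second PLA2G6 promoter peak stood at -0.22 in the first table, so the listed peaks of this gene differed.

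At the high end were PARVB, a focal adhesion gene, at 0.19, PRR14L at 0.04 and the promoter shared by CBY1 and FAM227A at -0.18 in the authors' first deposited table. By the second table EWSR1, an RNA-binding protein gene that shares its promoter with RHBDD3, was highest, with 239 knockout against 331 normalised sgNT reads and a fold change of -0.47 (counting interval -0.71 to -0.23). It stood at -0.82 in the first table. CBX7, a Polycomb subunit gene, had 163 knockout against 269 normalised sgNT reads (-0.72), but was at -1.30 in the authors' first deposited table. The strongest promoters by reads were GTPBP1 (-0.65 and -1.46), MYH9, a myosin heavy chain gene (-0.89 and -1.21), and RBX1, a ubiquitin ligase subunit gene (-0.95 and -1.25), in the authors' first and second deposited tables. GTPBP1 was thus 0.22 above the median of the first table and 0.23 below that of the second.

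Genes were also grouped by role, each by its strongest promoter peak, with shared promoters counted for each gene. No member of any group passed an adjusted p of 0.05. Of 19 transcription and chromatin genes of chromosome 21, 15 had a first-table and 14 a second-table promoter peak. Of these, 11 and 9 were above the table's median, as were 49.9% and 49.8% of all peaks. Among all promoter peaks the shares were 44.9% and 46.0%, the nearer background for this and the later groups. The median differences of this group were 0.19 and 0.12. Beside those described above, BACH1, a haem-regulated repressor gene, stood at -0.48 and -0.62, NRIP1, a nuclear receptor corepressor gene, at -0.63 and -0.93, CHAF1B, a subunit of a histone chaperone, at -1.25 and -1.32 and DYRK1A at -1.16 and -0.93 in the authors' first and second deposited tables. For the genes of RNA processing and ribosome assembly (11 genes), 5 of 8 and 9 of 9 promoters were above the median. SCAF4 stood at -0.30 and -1.11, RRP1 at -1.27 and -0.88 and URB1 at -0.42 and -0.99.

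The 7 mitochondrial genes of chromosome 21 had promoter peaks at 6 in each table, of which 6 and 5 were above the table's median, with median differences of 0.20 and 0.15. The mitochondrial ribosomal protein gene MRPS6 stood at -0.79 and -0.62 (185 knockout against 284 normalised sgNT reads), NDUFV3 of respiratory complex I at -0.60 and -1.21 and SOD1, the superoxide dismutase gene, at -0.83 and -1.03 in the authors' first and second deposited tables. Of the 6 cytokine receptor and interferon effector genes, 3 of 6 first-table and 3 of 3 second-table promoters were above the median. IFNAR1 stood at -0.99 and -0.87, whereas IFNGR2 (-1.17), MX1 (-0.85) and MX2 (-1.20) were listed in the first table. Of 12 adhesion and surface genes only ITGB2 (-0.21), APP (-1.01 at its strongest promoter peak) and CXADR had a promoter peak in the first table, and CXADR alone in the second (-1.24).

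By the second table the groups of chromosome 22 lay within 0.07 of the table's median. By the first they differed from it by 0.22 for DNA replication and genome upkeep, 0.18 for blood cell, 0.05 for transcription and chromatin and -0.02 for mitochondrial genes. Transcription and chromatin genes (22 genes, 16 with a promoter peak in each table) differed from it by 0.05 in both tables at their median. Their range ran between -1.39 and -0.38 in the first and between -1.57 and -0.47 in the second. EP300, a histone acetyltransferase gene, stood at -0.85 and -1.12, SMARCB1 of the SWI/SNF remodelling complex at -0.50 and -0.92, HIRA at -1.33 and -1.12 and SREBF2, a regulator of sterol synthesis, at -0.87 and -1.37 in the authors' first and second deposited tables. For the mitochondrial genes (21 genes, 15 and 14 with a peak), 7 and 6 were above the median. TXN2, a mitochondrial thioredoxin gene, stood at -1.21 and -1.59, NDUFA6 at -0.89 and -1.26 and the apoptosis regulator BID, in the first table, at -0.22.

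Of 21 blood cell genes of chromosome 22, 10 had a first-table and 9 a second-table promoter peak, with median differences of 0.18 and 0.02. CSF2RB, the shared receptor subunit for several myeloid cytokines, had the highest value of the group in the first table, at 0.39, and -1.25 by the second (64 knockout against 152 normalised sgNT reads). CRKL, an adaptor gene, stood at -0.71 and -1.60 in the authors' first and second deposited tables. DNA replication and genome upkeep genes (10 genes, 10 and 9 with a peak) had 8 of 10 first-table and 3 of 9 second-table promoters above the median. The replication gene CDC45 stood at -0.41 and -1.30, RANGAP1 at -0.64 and -1.54, the checkpoint kinase gene CHEK2 at -1.15 and -1.40 and the double-strand break repair gene XRCC6 at -0.72 and -1.07 in the authors' first and second deposited tables.

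**Figure D4:**
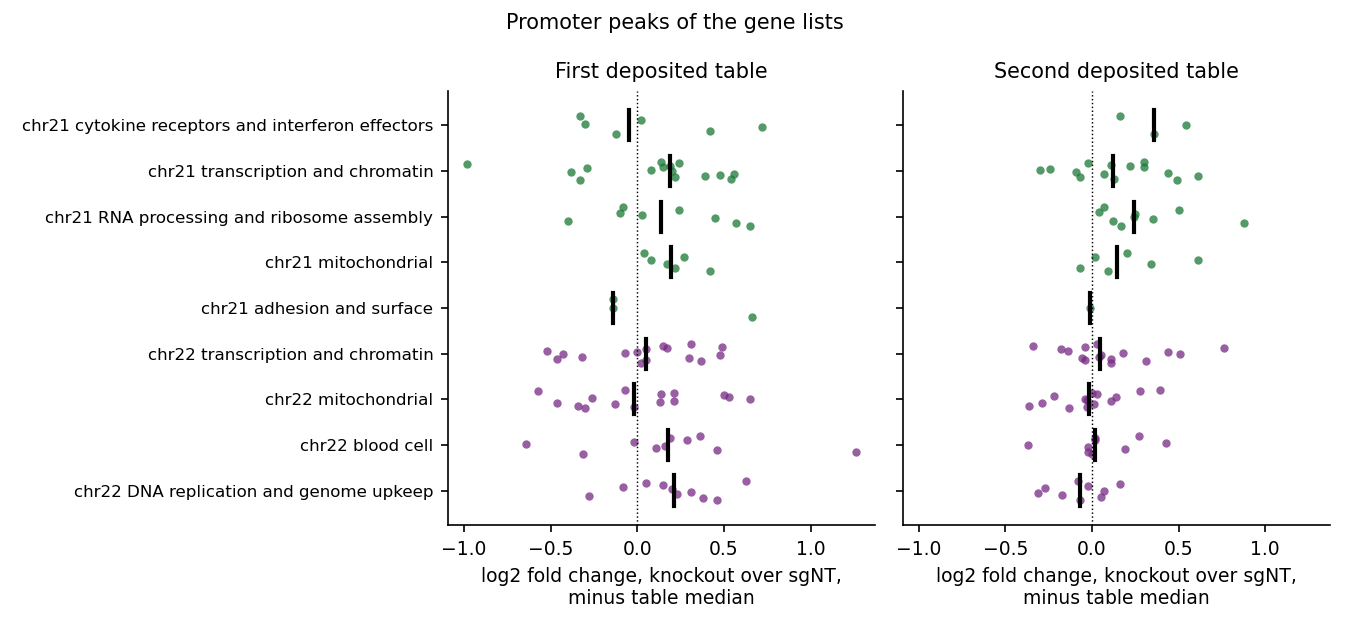
Points show the strongest promoter peak of each gene of a list (rows), as log2 fold change, knockout over sgNT, minus the median of the table (x axis), in the first (left) and second (right) deposited table, for chromosome 21 (green) and chromosome 22 (purple). Black bars are the medians, which range between -0.14 and 0.22 in the first table and between -0.07 and 0.36 in the second.

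Chromosome 22 also holds microRNA genes. Their mature sequences (RefSeq, GRCh38.p14, plus strand) are shown because 2 neighbours share a seed at each of 2 sites with peaks, with bases 2 to 8 in capitals. The mature forms of MIR130B and MIR301B lie at chr22:21653354-21653375 and chr22:21653025-21653047, and those of MIRLET7A3 and MIRLET7B at chr22:46112752-46112773 and chr22:46113691-46113712.
miR-130b-3p: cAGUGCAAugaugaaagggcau
miR-301b-3p: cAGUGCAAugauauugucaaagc
let-7a-5p: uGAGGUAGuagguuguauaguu
let-7b-5p: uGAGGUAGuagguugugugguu

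The peak 767 bp before MIR130B (chr22:21651800-21652537, annotated as a promoter of PPIL2) stood at -1.41 in the authors' first deposited table and differed by -0.27 from the median of the second, with 123 knockout against 347 normalised sgNT reads. A peak after the pair (chr22:21657379-21658247) stood at -1.55, the lowest of 35 ranked peaks away from promoters on chromosome 22 in the first table, and at -1.15 by the second (191 knockout against 425 normalised sgNT reads). The peak near the let-7 pair (chr22:46116352-46116896) stood at -0.81 and -0.61, which is 0.06 and 0.62 above the median of the authors' first and second deposited tables. The peaks beside the miR-130b seed pair were lower than the table in 3 of 4 values, and the 1 peak near the let-7 pair was higher in both. Over all peaks 49.9% and 49.8% lay above the median of their table, so these few values describe the sites alone.

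The short arm of chromosome 21 had a higher median than each long-arm stretch of chromosomes 21 and 22. That of chromosome 22, on 1 peak, was higher still in the first table, and short arms of other chromosomes were not compared. On chromosome 21 the short-arm median was -0.36 over 11 first-table and 0.12 over 19 second-table peaks, 0.51 and 1.35 above the table. Of the 19 second-table peaks 9 were at the lowest listed level, at which each library had 1 read or fewer and the listed fold change of 0.12 comes from the scaling alone. This level was found at 18 of the 484 second-table members (13 on chromosome 21 and 5 on chromosome 22), against 0.516% of all peaks of that table, so 25.7% of all such peaks lay on these chromosomes. Without these 9 peaks the short-arm median was -0.05, still 1.19 above the table. Reads of the short arm were 785 in the knockout and 879 in the sgNT library, or 0.0375% and 0.0164% of the reads in peaks, a ratio of 2.28. Much of this came from few peaks. The peak nearest TEKT4P2 had 241 knockout and 140 sgNT reads before normalisation, and that annotated to MIR6724-1 had 198 and 158.

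Peaks named after the ribosomal RNA neighbourhood (MIR6724-1 and RNA5-8SN4, a 5.8S ribosomal RNA gene) held the highest fold changes of the arm in the first table. Those at chr21:8234260-8234708 and chr21:8420109-8420551 stood at 2.35 (p = 0.0382) and 2.18 (p = 0.0414), both with an adjusted p of 0.731 in the authors' first deposited table. The peak at chr21:8420109-8420551 overlapped a second-table peak with 198 knockout against 145 normalised sgNT reads (0.45, counting interval 0.14 to 0.76). The highest second-table value of the arm was 1.45, at chr21:8228279-8229576, on only 20 knockout against 7.36 normalised sgNT reads (counting interval 0.20 to 2.84). The other peaks of the array in the first table stood between -0.76 and 0.02. A peak nearest TEKT4P2 (chr21:9247470-9248120) stood at 1.08 and 0.90 in the authors' first and second deposited tables, with 241 knockout against 129 normalised sgNT reads. The strongest peak of the arm (chr21:6369664-6372355, 2692 bp wide) had a mean level of 12077 in the first table, against a median of 142 over all peaks of that table. Its fold change was -0.90. The only short-arm peak of chromosome 22 (chr22:11931325-11932112) stood at 0.93 in the authors' first deposited table.

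Few promoters with a copy elsewhere lay under a peak. Of the 78 start-site windows of these chromosomes that share a 50-base word with another RefSeq window, 3 lay under a first-table peak, 10 under a second-table peak above the lowest level, and 9 under a second-table peak at the lowest level. For the 1072 windows with no such word the counts were 320, 339 and 2. SIK1, a kinase gene, and its copy were both at the lowest level, as were GATD3, ICOSLG and SMIM11 on the long arm. U2AF1, a splicing factor gene that is mutated in myeloid disease, had 26 knockout against 33.1 normalised sgNT reads (-0.35, counting interval -1.13 to 0.42), while its copy was at the lowest level. PWP2 had 28 knockout against 40.5 normalised sgNT reads, and its copy LOC102724159 58 against 139. Whether windows without a peak were closed or lost reads to their copies was not tested, and values at such promoters are uncertain, since reads may be shared among the copies.

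Peak level, annotation class and GC content are given here beside the fold changes. Of 4 equal groups of first-table peaks by mean level, members on the long arms stood at -0.29 in the weakest and -0.77 in the strongest, against -0.47 and -0.96 for all peaks of these groups. By the second table they stood at -0.94 and -1.21, against -1.06 and -1.27. There the strongest group of chromosome 22 (-1.295) lay below all peaks of that group. So did the second weakest group before RUNX1 (10 peaks, -1.445 against -1.24). The remaining groups of these stretches, and those beyond RUNX1, lay above. With the trend by level removed, the median was 0.27 above the table before RUNX1, 0.11 beyond it and 0.16 on chromosome 22 by the first table, and 0.17, 0.11 and 0.07 by the second. Promoter peaks of both long arms stood at -0.73 in the first table, against -0.92 for all promoter peaks, and other peaks at -0.59 against -0.76. By the second table these were -1.17 against -1.25 and -1.17 against -1.29. Second-table peaks with no annotation stood 0.35 above the table's median on the long arms and 0.23 above it over the whole table.

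Start-site windows under peaks had a median GC content of 70.0% on chromosome 21 and 68.3% on chromosome 22 in the first table, against 66.0% for all 7669 windows under its peaks, and 31 and 30 CpG against 27. Of 4 equal groups by GC content, first-table windows of both long arms differed from the table's median by 0.03 in the highest and 0.17 in the lowest, against -0.10 and -0.06 for all windows. Second-table windows of both long arms differed by 0.15 in the highest and 0.03 in the lowest, against 0.10 and -0.11 for all windows. The order of the highest and lowest group was thus opposite in the tables. Of the second-table windows of both long arms 32.5% were in the highest group. The part of GC content in the regional values was not tested. The letters CCGGAAG were found in 19 of 61 first-table windows of chromosome 21 (31.1%) and 36 of 153 of chromosome 22 (23.5%), against 21.2% of all. The NRF1 letters were found in 5 (8.2%) and 4 (2.61%) of these windows, against 2.70% of all. TGTGGT was found in 4 (6.56%) and 14 (9.15%), against 9.04%. The NRF1 and TGTGGT shares of chromosome 21 thus rest on few windows. A match describes the letters of a window and does not show that a factor binds there.

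The depth behind the second table was 2091322 reads in peaks for the knockout library and 5345251 for the sgNT library. The promoter of KMT5A itself stood at -0.82 and -1.45 in the authors' first and second deposited tables (second table, 251 knockout against 685 normalised sgNT reads), 0.05 and -0.22 from the table medians. A promoter peak does not by itself check the labels. Promoter peaks were listed for 4 of 6 myeloid progenitor markers in each table, with none at MPO and CD33. Of the markers of other cell types, 2 of 3 for T cells, 1 of 2 for B cells, 0 of 3 for red cells, 1 of 2 for epithelium and 0 of 2 for liver had one in the first table, and 1 T cell marker alone did in the second.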

How the data were processed

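ATAC-seq libraries of Kasumi-1 cells were grouped by their titles into SETD8 knockout and sgNT control, 2 each. The submitters' processing notes list Bowtie2, ChIPseeker, cutadapt, deepTools, MACS2 2.1.2, SAMtools and hg38 without settings. Read shifting, duplicate removal and library scaling were not given in the sources used here. Per the file headers and values, the authors deposited 2 tables with log2 levels and log2 fold changes per peak, together with p-values and adjusted p-values from their own test. The columns of the first deposited table have no names and were identified by order and range. Its 2 columns of per-library values were not used, because they name no library. That its fold change is treated over control comes from the table's name alone.

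Reads of the second table were recovered from the deposited log2 levels. These were taken as whole reads in the knockout library and as reads multiplied by 0.918 in the sgNT library. Knockout levels were rounded to whole reads without a check. The sgNT factor made 100% of 170 weak sgNT values whole, within 0.005 on the log2 scale. "Normalised sgNT reads" are after that factor. With 1 library per group no count test could be run, and the planned edgeR test was not possible. Medians, counts and shares were computed within a table, with exact 95% intervals for counting error only. Peaks with 3 or fewer reads in both libraries did not stand for a promoter. A peak lies in the region that holds its midpoint. Promoter is the class of the annotation, and peaks of the second table took it by overlap of at least 1 bp. All 423 gene identifiers matched RefSeq. The trend by level was the median of 20 bins.

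The members and the gene lists were chosen with earlier results of these data known. Named were the RUNX1 peaks, the lowest and highest ranked peaks of each stretch among those at or above the table's median level, the 3 strongest peaks of a stretch, up to 6 members per list, and a few further sites chosen after their values were seen. Some genes of the lists are not reported here by name. Python 3.11.15, numpy 2.4.6, pandas 2.3.3, scipy 1.17.1 and matplotlib 3.10.9 were used, and the medians and intervals were tested on simulated data.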

Additional observations from a re-analysis of the deposited data

How the results depend on the processing

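Of 100 values recomputed under another setting, 72 kept their direction and stayed within 0.085 (medians), 1.5 times (counts) or their counting interval (ratios). The medians of the stretches beside RUNX1 and of chromosome 22 were above 0 in 52 of 53 alternatives. The exception was the second-table stretch before RUNX1 at peaks other than promoters, -0.01 against 0.16. That stretch was at 0.28 with the short arm included. The stretches were taken up because of fold changes already seen, and the alternatives mostly reuse the same peaks. Centring on the peaks of all other chromosomes changed none of these medians. The count of alternatives above 0 is therefore not separate support for the medians. The RUNX1 interval of the second table was 0.19 at promoter peaks and -0.49 at others against -0.10, and with wider limits the interval was at 0.00 in the first and -0.01 in the second table. Beyond RUNX1 the first table gave 0.24 at peaks that overlap between the tables against 0.15, and the second 0.26 at promoters and 0.04 at other peaks. At 0.5 or more below the table's median (13.7% and 6.29% of all peaks) the counts before RUNX1, beyond it and on chromosome 22 were 6, 6 and 33 in the first and 0, 2 and 9 in the second table. At a fold change of -1.5 or less (8.51% and 19.5%) they were 2, 6 and 16, and 7, 6 and 42. Ratios of read shares at promoters alone were 1.16 before RUNX1, 1.14 in the interval and 1.14 beyond it. The causes were not tested.

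At an adjusted p of 0.1 the count stayed 0 in both tables. No paired analysis was possible because the second table holds only the libraries numbered 2 and the first names no library, and replicates could not be left out in turn for the same reason. Each result therefore rests on 1 pair of libraries or on libraries that are not named, and whether the tables share libraries is not stated. The median second-table peak had 125 knockout and 323 sgNT reads, which limits what a single peak can show.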
